A study of Mus musculus with 6 samples.

Results

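The 10 genes described here encode acute-phase proteins: haptoglobin (Hp), hemopexin (Hpx), the serum amyloid A proteins (Saa1, Saa2 and Saa3), the 3 chains of fibrinogen (Fga, Fgb and Fgg), leucine-rich alpha-2-glycoprotein (Lrg1) and ceruloplasmin (Cp). They were found by symbol among 26971 features of a table of read counts, and each symbol stood on a single row. They were chosen by their counts in the 6 libraries, congested against IRI and within equal replicate numbers, Hp for its difference between the groups, so that difference is given for all 10 as a description and no test of it is used as support. The libraries were made from polyadenylated RNA of kidney cortex from male C57BL/6 mice, taken 1 day after surgery. The first group had ischaemia-reperfusion injury with renal congestion (titled Cong_IRI, treatment IRI with IVCC, n = 3). The second group had the injury without congestion (titled CLK_IRI, treatment IRI, n = 3). In such an injury the blood supply is first interrupted and then let back in; the labels expand neither IVCC nor CLK. Both groups carried the injury, no uninjured kidney is compared here, and the labels give no age and no count of animals, so spread between libraries may be technical. Replicates are numbered 1 to 3 in both groups without a statement of what a number shares.

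The acute-phase response is the change in plasma proteins that follows injury or infection. In hepatocytes many of these genes are switched on by interleukin-6 acting through STAT3, and some also by interleukin-1 acting through NF-kappaB and C/EBP factors. Haptoglobin binds free haemoglobin, hemopexin binds free haem and ceruloplasmin oxidises iron, so these 3 limit damage from lysed red cells. Fibrinogen is the precursor of fibrin, and its transcripts are known to be induced in rodent kidney after ischaemia. Serum amyloid A proteins are lipoprotein-bound attractants of leukocytes, and LRG1 is a secreted modulator of TGF-beta signalling in vessels.

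On the GRCm38 annotation (GENCODE M21) all 10 genes are protein-coding. Hp occupies bases 109575128 to 109579172 of chromosome 8 (minus strand). The 3 fibrinogen genes are neighbours on chromosome 3, with Fgg at 83007724 to 83015049, Fga at 83026076 to 83033627 and Fgb, on the opposite strand from both, at 83040141 to 83049863. Saa3 (46711998 to 46715700), Saa1 (46740497 to 46742980) and Saa2 (46751790 to 46754313) form a cluster on chromosome 7, and Hpx stands apart on that chromosome at 105591613 to 105600137. Lrg1 lies on chromosome 17 (56119678 to 56122001) and Cp on chromosome 3 (19957054 to 20009145). Cp overlaps Hps3 and Fgg overlaps Gm30097, each on the opposite strand. Whether counting used strand is not stated, so reads of these pairs may not be separated.

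The fibrinogen promoters are shown because the 3 chains had nearly the same pattern across libraries. Each line gives bases before the transcript start annotated by RefSeq, 5′ to 3′ on the strand of the gene, at chr3:83025903-83026075 (plus strand) for Fga, chr3:83049864-83050113 (minus strand) for Fgb and chr3:83007474-83007723 (plus strand) for Fgg, all in build GRCm38.p6. Bases of Fga that lie within an annotated exon were left out. Capitals mark matches on either strand to TTCNNNGAA (STAT factors), CTGGGA (the core of a fibrinogen interleukin-6 response element) or TTGCNNAA (C/EBP factors).
Fga: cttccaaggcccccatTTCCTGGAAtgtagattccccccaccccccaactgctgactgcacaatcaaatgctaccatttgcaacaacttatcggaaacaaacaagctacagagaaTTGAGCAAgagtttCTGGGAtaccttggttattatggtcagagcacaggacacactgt
Fgb: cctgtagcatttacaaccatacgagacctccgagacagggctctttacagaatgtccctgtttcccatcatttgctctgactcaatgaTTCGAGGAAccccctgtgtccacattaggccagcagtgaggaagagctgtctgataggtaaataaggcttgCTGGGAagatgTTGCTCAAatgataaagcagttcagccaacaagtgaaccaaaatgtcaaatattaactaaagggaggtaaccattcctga
Fgg: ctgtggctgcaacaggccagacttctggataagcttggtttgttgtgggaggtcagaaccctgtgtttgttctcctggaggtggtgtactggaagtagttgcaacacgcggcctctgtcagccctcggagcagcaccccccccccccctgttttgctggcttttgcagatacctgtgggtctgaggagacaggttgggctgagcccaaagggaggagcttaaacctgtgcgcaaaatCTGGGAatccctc
All 3 windows hold CTGGGA, which was present in 27% of 32851 promoter windows of 250 bases. Fga and Fgb also hold the STAT letters, present in 7.02% of windows, and the C/EBP letters, present in 9.56%. Promoter windows were matched for 9 of the 10 genes, and 7 of their 10 windows hold the C/EBP letters, those of Saa1, Saa2, Saa3 and Hpx among them. An NF-kappaB motif (17.6% of windows) occurs in 1 window, of Cp. The full HNF1 pattern of 13 bases occurs in 0, and only 3 of the 32851 windows (0.00913%) hold it. So strict a pattern is missing from nearly every window, so its absence here says nothing about looser HNF1 sites. These matches describe letters only.

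Total counts ranged from 11376642 to 12856600 in the congested libraries and from 10865860 to 14350425 in the IRI libraries. CPM is the count divided by the library's TMM-scaled total and multiplied by 1e6, and a count of 0 allows up to 3 reads, or 0.22 to 0.269 CPM, counting error only. Markers of the proximal tubule, which fills the cortex, were present in all libraries and summed to 3962 to 9963 CPM in congested and 4658 to 10051 CPM in IRI libraries. The 10 hepatocyte markers summed to 351, 237 and 502 CPM in congested replicates 1, 2 and 3 and to 210, 199 and 752 CPM in IRI replicates 1, 2 and 3. Most of that sum was Apob (193 to 385 CPM in congested and 117 to 604 CPM in IRI libraries) and Serpina1a (5.29 to 98.3 and 19.2 to 131 CPM), whereas Ahsg, Mup3 and Tat had at most 1 read in any library. Alb was highest in replicate 1 of both groups, and Apoa1 and Serpina1a were lowest there; the part of hepatocyte RNA in the levels below was not tested. Replicate 1 of both groups stood apart in markers. Injured tubule markers summed to 64620 CPM in congested replicate 1 and 47030 CPM in IRI replicate 1, against 6430 to 18256 CPM in the other 4 libraries. Most of the injured tubule sum was Spp1, at 59308 and 40269 CPM in these replicate 1 libraries. Havcr1 had 2122 and 2479 CPM there, against 889 to 1063 CPM in the other 4 libraries. Proximal tubule markers summed to 3962 CPM in congested replicate 1 and 4658 CPM in IRI replicate 1, against 9414 to 10051 CPM. In bulk tissue, fewer cells of a type and less RNA per cell cannot be told apart.

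On average over the libraries, Fgg and Fga were the most abundant of the 10 transcripts and Hpx the least. Per kilobase of the longest protein-coding transcript, the mean over the 6 libraries was 278 CPM per kb for Fgg, 132 for Fga, 39.1 for Cp, 34 for Fgb, 17.9 for Lrg1, 8.75 for Saa1, 6.88 for Hp, 0.607 for Saa2, 0.495 for Saa3 and 0.118 for Hpx. These levels depend on the transcript length used, which for Fgb was 3810 bases with a coding part of 1443 bases. Fgg exceeded Fga in all 6 libraries. The order of Cp and Fgb changed between libraries, Fgb having the higher level in both replicate 1 libraries (85.4 against 41.5 CPM per kb in congested, 83 against 42.2 in IRI) and Cp in the other 4. Saa1 exceeded Hp in 5 libraries, and Hp exceeded Saa1 in congested replicate 2, at 27.3 against 5.53 CPM per kb. Hpx, Saa2 and Saa3 had too few reads for the filter on low counts and were not tested, which left 7 of the 10 genes among 14274 tested.

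**Figure D1:**
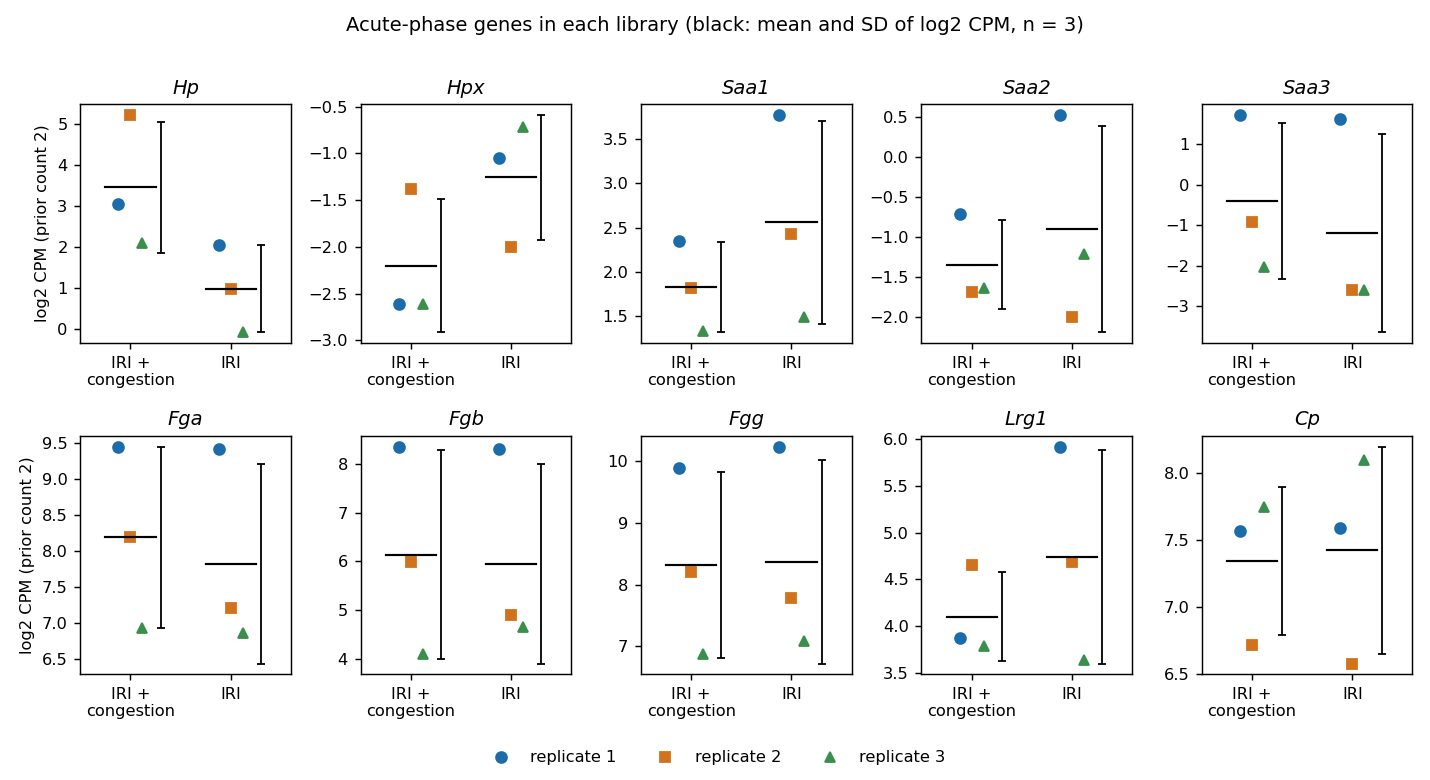
Level of each acute-phase gene in each library on the log2 CPM scale (prior count 2), with congested IRI left of IRI in every panel, points marked by replicate number, and black lines and bars for the mean and SD (n = 3). Hp is the only panel in which the 3 congested libraries (4.16 to 36.8 CPM) all lie above the 3 IRI libraries (0.795 to 3.98 CPM), and in the fibrinogen panels both replicate 1 libraries lie above all others.

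Haptoglobin was the member chosen for its difference between the groups. Hp had 90, 502 and 53 reads in congested replicates 1, 2 and 3, or 8.08, 36.8 and 4.16 CPM. In IRI replicates 1, 2 and 3 it had 50, 21 and 9 reads, or 3.98, 1.79 and 0.795 CPM. The groups did not overlap, but the lowest congested and the highest IRI library lay close together, and congested replicate 2 alone held most of the congested reads. Hp averaged 16.3 ± 17.8 CPM in congested and 2.19 ± 1.63 CPM in IRI kidney (SD, n = 3 each), a 7.4-fold difference, or 2.89 on the log2 scale with a standard error of 0.91. Within libraries of the same number the log2 difference was 0.99, 4.24 and 2.17 in replicates 1, 2 and 3. Without congested replicate 2 the log2 difference over all libraries was 1.47 (standard error 0.67). Groups with all 3 congested libraries above all 3 IRI libraries occurred in 3.42% of tested genes, and nothing is read from Hp being among them, since it was chosen for this contrast.

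Hp is also made by neutrophils and macrophages, so their markers are given beside it. Neutrophil markers summed to 226, 16.5 and 8.16 CPM in congested replicates 1, 2 and 3 and to 75.3, 9.05 and 5.12 CPM in IRI replicates 1, 2 and 3, over 10 measured genes. Monocyte and macrophage markers summed to 549, 120 and 117 CPM in the congested and 210, 111 and 115 CPM in the IRI libraries, over 12 measured genes. Both sums were highest in congested replicate 1, and Hp was highest in congested replicate 2. The monocyte and macrophage sum in congested replicate 1 was largely Lyz2 (197 CPM) and Chil3 (140 CPM). In that list C1qa and C1qb were highest in IRI replicate 2 (20.5 and 21.4 CPM), Csf1r in IRI replicate 3 (47.8 CPM) and Cd14 in IRI replicate 1 (84 CPM). The remaining markers of the list peaked in congested replicate 1. Summed red cell markers, the source of the haemoglobin that haptoglobin binds, ranged from 99.7 to 141 CPM in congested and 75.4 to 179 CPM in IRI libraries. Fibroblast and smooth muscle markers summed to 259, 444 and 339 CPM in congested replicates 1, 2 and 3. In IRI replicates 1, 2 and 3 the sums were 192, 365 and 177 CPM. Of these markers, Col1a1, Col3a1 and Dcn were highest in congested replicate 2. Acta2 was highest in congested replicate 1, and Pdgfra and Pdgfrb in congested replicate 3. The part of any of these cells in the Hp counts was not tested.

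Hemopexin, the haem-binding partner in the same scavenging system, was at the limit of detection. Hpx had 0, 3 and 0 reads in congested replicates 1, 2 and 3 and 4, 1 and 5 reads in IRI replicates 1, 2 and 3. No library held more than 5 reads, and a difference between the groups was not detectable at this depth.

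Ceruloplasmin had the narrowest range of the 7 tested members. Cp lay at 189, 106 and 215 CPM in congested replicates 1, 2 and 3 and at 192, 95.2 and 274 CPM in IRI replicates 1, 2 and 3. Replicate 2 was the lowest and replicate 3 the highest in both groups, and the groups overlapped throughout. The log2 difference of congested from IRI kidney was -0.14 with a standard error of 0.43, and within numbers -0.02, 0.15 and -0.35.

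The fibrinogen chains, which are assembled into a single hexamer, varied together across libraries and overlapped between the groups. Fga had 695, 292 and 121 CPM in congested replicates 1, 2 and 3 and 679, 147 and 116 CPM in IRI replicates 1, 2 and 3. Fgb had 325, 63.1 and 16.9 CPM in the congested and 316, 29.5 and 25 CPM in the IRI replicates. Fgg had 943, 294 and 117 CPM in the congested and 1197, 221 and 136 CPM in the IRI replicates. In each chain both replicate 1 libraries exceeded all others and both replicate 3 libraries were the lowest. Pearson's r of log2 CPM over the 6 libraries was 0.98 to 0.99 between chains, a description of libraries in which replicate 1 stood apart. The log2 differences of congested from IRI kidney were 0.23 for Fga (standard error 0.82), 0.13 for Fgb (1.23) and -0.20 for Fgg (0.96).

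Within numbers, congested replicate 2 held more fibrinogen transcript than IRI replicate 2. The log2 difference there was 0.98 for Fga, 1.09 for Fgb and 0.41 for Fgg. In replicate 1 the differences were 0.04, 0.04 and -0.34 in the same order, and in replicate 3 they were 0.06, -0.56 and -0.21. Leaving out single libraries took the log2 difference of Fga between -0.62 and 1.5, of Fgb between -1.64 and 2.32 and of Fgg between -1.34 and 1.35. The low end came without congested replicate 1 and the high end without IRI replicate 1 in all 3 chains.

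The balance of the chains was uneven, with Fgb the scarcest per length in every library. The lengths used were 2587 bases for Fga, 3810 for Fgb and 1741 for Fgg, and the coding parts are 2367, 1443 and 1329 bases. The size of the shares below therefore depends on the length used, and a shorter length would raise that of Fgb. Fgb made up 9.54%, 5.56% and 3.74% of the summed chains per kilobase in congested replicates 1, 2 and 3 and 8.04%, 4.05% and 5.07% in IRI replicates 1, 2 and 3. Its share was highest in replicate 1 of each group, where the sum was also highest, at 896 and 1033 CPM per kb. Fgg made up 60.5%, 56.6% and 56.8% in the congested and 66.6%, 66.2% and 60.4% in the IRI replicates. Within each number the Fga share was larger in congested than in IRI kidney, at 30%, 37.8% and 39.5% against 25.4%, 29.7% and 34.6%. Across numbers the groups overlapped, as the share in congested replicate 1 was below that in IRI replicate 3. The contrast chose the members, so nothing is read from this direction.

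**Figure D2:**
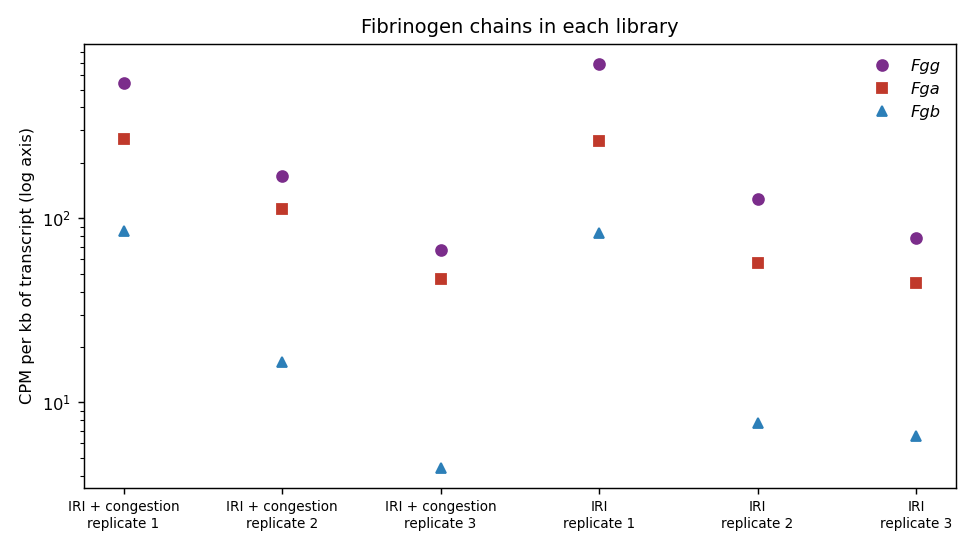
CPM per kilobase of transcript (log axis) of the fibrinogen chain genes in each library, congested IRI on the left and IRI on the right. Fgg is above Fga and Fga above Fgb in all 6 libraries, and both replicate 1 libraries are highest, Fgb reaching 85.4 and 83 CPM per kb there against 4.43 to 16.6 in the others.

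The serum amyloid A genes were expressed at low levels, and Saa1 supplied most of their reads. Saa1 had 55, 46 and 30 reads in congested replicates 1, 2 and 3 and 169, 61 and 30 reads in IRI replicates 1, 2 and 3, or 4.94, 3.37 and 2.35 against 13.4, 5.21 and 2.65 CPM. IRI replicate 1 was well above all other libraries, and the remaining ranges overlapped. The log2 difference of congested from IRI kidney was -1.0 with a standard error of 0.60, and it was -0.14 without IRI replicate 1. Within numbers Saa1 was lower in congested kidney by -1.42, -0.61 and -0.16 on the log2 scale in replicates 1, 2 and 3. Saa1 was the only tested member lower in all 3 numbers, as 13.1% of tested genes were, and Hp and Fga were higher in all 3, as 13.1% of tested genes also were; the contrast chose the members, so nothing is read from these counts.

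Saa2 had 5, 2 and 2 reads in congested replicates 1, 2 and 3 and 16, 1 and 3 in IRI replicates 1, 2 and 3. Saa3, the isoform that mouse macrophages and epithelia make outside the liver, had 35, 5 and 1 reads in the congested and 37, 0 and 0 reads in the IRI replicates. Nearly all Saa3 reads thus came from replicate 1 of each group, where it made up 36.8% of the reads of the 3 genes in congested and 16.7% in IRI kidney. In the other 4 libraries its share was at most 9.43%.

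Saa1 and Saa2 are close copies, so reads from stretches that both share cannot be told apart. Their coding sequences, 366 bases each, were 95.1% identical in an alignment, while Saa3 shared 75.9% with Saa1. The first 120 coding bases of each, from the GENCODE M21 transcripts on chromosome 7, are printed 5′ to 3′ with the differing bases in capitals to show how few bases separate them.
Saa1: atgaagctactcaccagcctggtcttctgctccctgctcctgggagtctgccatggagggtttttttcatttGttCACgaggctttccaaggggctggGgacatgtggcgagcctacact
Saa2: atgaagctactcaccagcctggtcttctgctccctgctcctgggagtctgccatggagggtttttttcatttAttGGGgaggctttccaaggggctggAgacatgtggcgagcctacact
In this stretch 5 bases differ, of 18 in the whole coding sequence. Of all 50-base windows of the Saa1 transcript, 13.2% occur unchanged in Saa2, and of 100-base windows 0%. The rule for reads that match both genes is not given in the sources used here.

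Lrg1 was highest in IRI replicate 1 alone. It lay at 14.4, 24.9 and 13.6 CPM in congested replicates 1, 2 and 3 and at 60.5, 25.5 and 12.2 CPM in IRI replicates 1, 2 and 3. All other libraries lay within 12.2 to 25.5 CPM, so the groups overlapped. The log2 difference of congested from IRI kidney was -0.89 with a standard error of 0.55, and -0.09 without IRI replicate 1. Within numbers it was -2.05, -0.04 and 0.15, so the difference rested on replicate 1. Endothelial markers, from cells known to express Lrg1, summed to 279 to 333 CPM in congested and 273 to 344 CPM in IRI libraries.

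**Figure D3:**
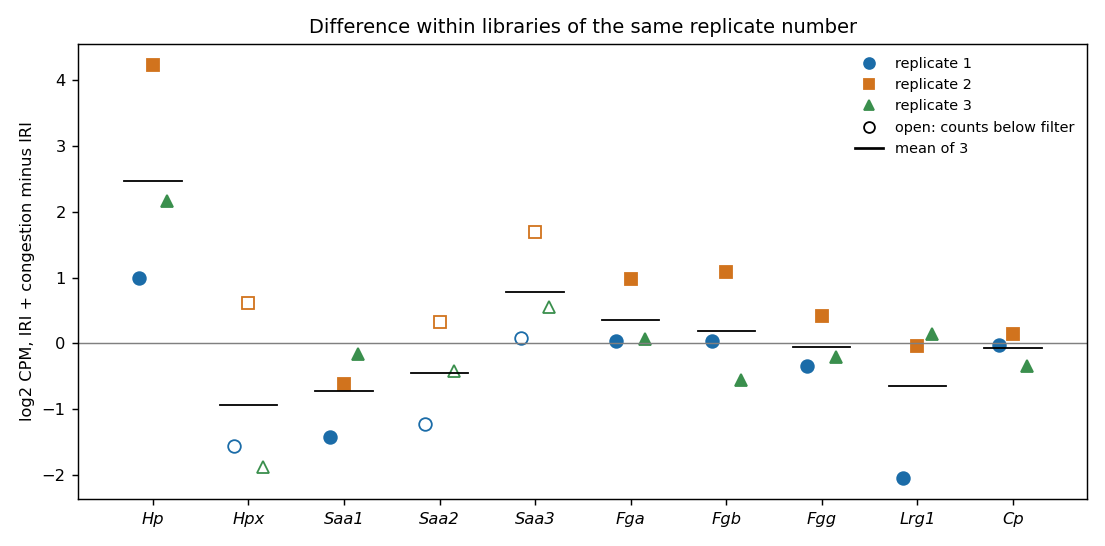
Difference in log2 CPM (prior count 2) of congested IRI minus IRI within each replicate number for the 10 acute-phase genes, with black lines for the mean of 3 and open symbols for genes below the filter on low counts. Hp lies above 0 in all numbers (0.99, 4.24 and 2.17), Saa1 below 0 in all, and Lrg1 far below 0 in replicate 1 only (-2.05).

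Across all genes the comparison of congested with IRI kidney gave no calls. In edgeR's quasi-likelihood test 0 genes were higher and 0 lower at an adjusted p under 0.05 (0% of 14274 in each direction), with 285 at an unadjusted p under 0.05; DESeq2 without the replicate number as a block also called 0, with 354 at an unadjusted p under 0.05. With numbers blocked, edgeR called 0 and DESeq2 called 10, Hp among them; its log2 difference was 2.56 in both (standard errors 0.59 and 0.50). That call is among the values that chose Hp, so it is given as part of its description and supports nothing. Of the 7 tested members 3 had a log2 difference above 0 and 4 below, with a median of -0.14, beside 49.6% above 0 and a median of 0.00 over all tested genes. Hp was the only tested member whose groups did not overlap, on the higher side; 0 members lay wholly on the lower side, where 3.07% of tested genes did.

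The replicate number offers another contrast, because each number holds 1 library of each group. The counts of every library were known when the members were chosen, so this contrast is not independent of that choice. In edgeR, with group as a further term, 4 of the 7 tested members differed between numbers at an adjusted p under 0.05, where 8.01% of all tested genes did. These were the 3 fibrinogen genes and Cp. The 3 fibrinogen genes varied together, so they do not count as 3 separate results. Replicate 1 exceeded replicate 2 by 7.08-fold and replicate 3 by 15.2-fold for Fgb (adjusted p = 0.00283), by 4.14-fold and 8.45-fold for Fgg (adjusted p = 0.00264) and by 3.26-fold and 5.82-fold for Fga (adjusted p = 0.00673). Each direction held in both groups, and all 3 genes were called in every alternative that kept all 6 libraries. The largest adjusted p was 0.0106 for Fgb, 0.0106 for Fgg and 0.0213 for Fga, in edgeR without the group term. With a library left out, the mean log2 difference of replicate 1 from replicates 2 and 3 lay between 3.09 and 3.77 for Fgb. It lay between 2.34 and 2.80 for Fgg and between 1.88 and 2.38 for Fga. These fits reuse the same counts, so they are no separate support. Called genes with replicate 1 above both other numbers made up 3.51% of all tested genes, and those with replicate 1 below both made up 4.41%, with 0 of the members among them.

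Cp had another order, with replicate 1 at 1.9-fold the level of replicate 2 and 0.784-fold that of replicate 3 (edgeR adjusted p = 0.0355). Replicate 1 lay between the other numbers in 0.0981% of tested genes among those called. The call was lost without IRI replicate 2 (adjusted p = 0.36) and without congested replicate 2 (0.122), and the alternatives ranged from 3.21e-07 to 0.36. Saa1 did not pass, at 2.01-fold and 3.35-fold (edgeR adjusted p = 0.0573), though it did in DESeq2 (0.0209), with 1.26e-04 to 0.431 over the alternatives. Hp did not pass (edgeR adjusted p = 0.116), replicate 1 being at 0.565-fold the level of replicate 2 and 3.32-fold that of replicate 3, but passed in DESeq2 (0.0078), with 3.71e-09 to 0.765 over the alternatives. Lrg1 did not pass either (edgeR adjusted p = 0.24, with 1.36e-04 to 0.914 over the alternatives).

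The fibrinogen pattern moved with the injury markers, whose sum was highest in replicate 1 of both groups, and against the proximal tubule markers, whose sum was lowest there. Summed thick ascending limb and distal markers were also lowest there, at 1905 CPM in congested and 1858 CPM in IRI, against 3795 to 6723 CPM elsewhere. Of the 8 injured tubule markers, which include Havcr1, Krt20 and Spp1, 7 had both replicate 1 libraries above the other 4, as 18.4% of tested genes had (19.8% had both below). Of 5 tested neutrophil markers 4 did, and of 11 tested monocyte and macrophage markers 3 did. Whether a number marks an animal, a day or a batch is not stated by the labels, and the part of tubular injury or of leukocytes in the fibrinogen levels was not tested.

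**Figure D4:**
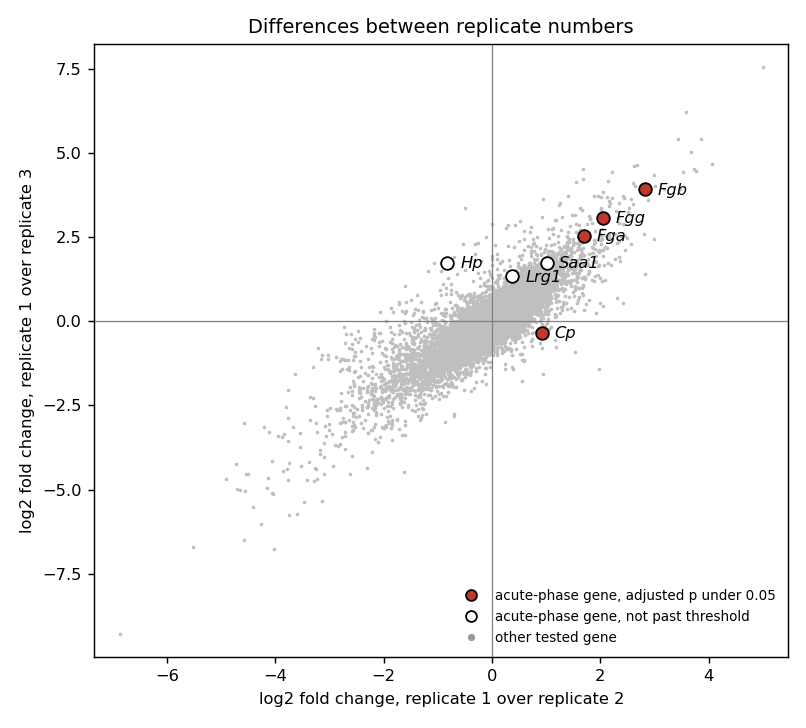
Log2 fold change of replicate 1 over replicate 2 (horizontal) against replicate 1 over replicate 3 (vertical), each from the edgeR fit over both groups, for all 14274 tested genes (grey) and the 7 tested acute-phase genes (large circles, filled red where the adjusted p was under 0.05). Fgb (2.82 and 3.92), Fgg (2.05 and 3.08) and Fga (1.70 and 2.54) lie at the upper right and Cp (0.92 and -0.35) below the horizontal line; the 2 axes share replicate 1.

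The remaining acute-phase and pathway genes gave 0 calls between the groups in every list, and many differed between replicate numbers. Among other positive acute-phase genes, 17 of 27 measured were tested; 9 had a log2 difference above 0, with a median of 0.04, and 0 passed in either direction. The 2 with the smallest p were Il1rn, the interleukin-1 receptor antagonist, at a log2 difference of 1.65 (standard error 0.80) and complement C3 at 0.41 (0.22), both at an edgeR adjusted p of 0.933. Between numbers 9 of the 17 passed, 7 with replicate 1 above both others and 1 with it below both. Over all tested genes these shares were 8.01%, 3.51% and 4.41%. The count of 9 moved when single libraries were left out, as did the count over all tested genes. Cd14, the lipopolysaccharide co-receptor, and Mt2, a metallothionein, were among those higher in replicate 1 than in both others (edgeR adjusted p = 0.00137 and 0.00382).

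Negative acute-phase genes, which hepatocytes lower in inflammation, were measured in 10 of 10 cases and tested in 8. Of these 2 had a log2 difference above 0, with a median of -0.32 and 0 passing in either direction. Apoa2 was at -0.47 (standard error 0.40) and Fetub at -0.43 (0.41), both at an edgeR adjusted p of 0.933. Between numbers 5 passed, 3 with replicate 1 above both others and 2 with it below both, beside 8.01% of all tested genes. Transferrin (Trf) and albumin (Alb) were higher in replicate 1 than in both others (edgeR adjusted p = 0.00382 and 0.00433) and Apoa1 was lower (0.00735).

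Genes of the interleukin-6 family and STAT3 pathway were tested in 20 of 23 cases, 14 with a log2 difference above 0 and a median of 0.13, and 0 passed between the groups. The receptor subunit gene Il11ra1 was at -0.50 (standard error 0.25) and the kinase gene Jak1 at 0.36 (0.23), both at an edgeR adjusted p of 0.933. Il6 itself had 14, 5 and 4 reads in congested replicates 1, 2 and 3 and 33, 3 and 0 reads in IRI replicates 1, 2 and 3, and did not pass the filter. Between numbers 7 passed, 6 with replicate 1 above both others, beside 8.01% of all tested genes. The 7 included Cebpb and Cebpd, which encode C/EBP factors of the acute-phase response (edgeR adjusted p = 0.00875 and 0.011), and the cytokine gene Clcf1 (0.00939). The count of 7 moved when single libraries were left out, as did the count over all tested genes. Cebpb had 25.7, 10.7 and 7.06 CPM in the congested and 46, 14.4 and 13.1 CPM in the IRI replicates, lower in congested kidney within every number.

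Of the interleukin-1 and NF-kappaB inputs 11 of 13 were tested and 9 had a log2 difference above 0, with a median of 0.26; 0 passed between the groups. Il1r1, the interleukin-1 receptor, was at 0.52 (standard error 0.24) and Il1b at 1.5 (0.94), both at an edgeR adjusted p of 0.933. Between numbers Il1b (adjusted p = 0.0102), Nfkbiz (0.0119) and Relb (0.0348) passed in edgeR, each with replicate 1 above both others. This makes 3 of 11, beside 8.01% of all tested genes. The count of 3 moved when single libraries were left out, as did the count over all tested genes.

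Of the partners in haem, haemoglobin and iron handling 11 of 12 were tested and 4 had a log2 difference above 0, with a median of -0.26; 0 passed between the groups. Hmox2, a haem oxygenase, was at -0.47 (standard error 0.23) and Fth1, the ferritin heavy chain, at -0.65 (0.48), both at an edgeR adjusted p of 0.933. Hmox1, the inducible haem oxygenase, had 632, 161 and 77.1 CPM in congested replicates 1, 2 and 3 and 875, 127 and 42.1 CPM in IRI replicates 1, 2 and 3, and differed between numbers (edgeR adjusted p = 0.00283), as did Blvrb (0.0147) and the iron exporter gene Slc40a1 (0.0367). These were 3 of 11, beside 8.01% of all tested genes. The count of 3 moved when single libraries were left out, as did the count over all tested genes. Cd163, the macrophage receptor for the haptoglobin-haemoglobin complex, did not pass the filter.

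All 12 tested receptors of serum amyloid A, fibrinogen and LRG1, of 14 measured, had a log2 difference above 0, beside 49.6% of all tested genes, with a median of 0.46 beside 0.00, and 0 passed between the groups. Leukocytes carry several of these receptors, and 5 of 5 tested neutrophil markers and 9 of 11 tested monocyte and macrophage markers also had a log2 difference above 0; their part was not tested. Eng, the endothelial TGF-beta co-receptor through which LRG1 acts, had 73.4, 64.4 and 74.7 CPM in congested replicates 1, 2 and 3 and 42.2, 51.1 and 53.3 CPM in IRI replicates 1, 2 and 3. Its log2 difference was 0.54 with a standard error of 0.19 (edgeR adjusted p = 0.933), and that of Tlr4, a receptor reported for fibrinogen and serum amyloid A, was 0.97 with a standard error of 0.46 (edgeR adjusted p = 0.933). Between numbers Itgam, a subunit of a leukocyte integrin that binds fibrinogen, was the only gene of the list to pass (edgeR adjusted p = 0.0316). A share of 1 in 12 is near the 8.01% of all tested genes. The count of 1 moved when single libraries were left out, as did the count over all tested genes.

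The genes whose pattern was most like each member were taken by Pearson's r of log2 CPM over the 6 libraries among the 10969 tested genes averaging 5 CPM or more. With so few libraries and so many genes, high values of r occur for every member. For Hp they were C1qtnf1 (r = 0.976), Rnase4 (0.961) and Postn (0.952). Postn, which encodes the matrix protein periostin, had 11.3, 25.6 and 6.59 CPM in the congested and 8.11, 7.68 and 4.86 CPM in the IRI replicates. Its peak in congested replicate 2 was thus shared with Hp at a smaller size. For Fga they were Gpat3 (0.999), Nfkbiz and Txnrd1 (0.995 each), for Fgb Cmtr2 (0.999), Nras and Srsf7 (0.996 each) and for Fgg Rell1 (0.996), Bnip2 (0.995) and Nfe2l2 (0.994). For Saa1 they were Taf13, Ppp2r2d (0.996 each) and Tmem181a (0.995), for Lrg1 Tipin (0.982), Cd302 (0.980) and Erp44 (0.979), and for Cp Tob2 (0.985), Cyp4a14 (0.969) and Pars2 (0.956). Between members from different families r was highest for Saa1 with Lrg1 (0.88) and lowest for Hp with Cp (-0.46).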

How the data were processed

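The authors deposited a table of read counts per gene, whole numbers without normalization, with 1 column per sample. Per the submitters' processing notes, STAR 2.7.10a, featureCounts, Subread and GRCm38 were used, without the role of each; per the labels' protocols, libraries were made with a stranded kit for polyadenylated RNA. No source used here gives the annotation, strand setting or multimapping rules. The test was that of edgeR 4.0.16 under R 4.3.3 (TMM factors, filterByExpr with minimum count 10 and minimum total 15, robust quasi-likelihood F test, Benjamini-Hochberg adjustment over all 14274 genes tested), with group as the term, or with group and replicate number for differences between numbers. Standard errors of log2 differences were derived from the F statistic. The fits were tested on simulated data. DESeq2 1.42.0, other scaling, no filter, the replicate block and each library left out in turn were the alternatives. Deviations from group means correlated at 0.724, 0.342 and 0.429 between samples numbered 1, 2 and 3, each over 0.1. Differences within numbers and fits with the number as a block are therefore given, though the labels state no pairing. The main test between the groups did not use the number. Differently numbered samples also correlated, congested 3 with IRI 2 at 0.401 and congested 2 with IRI 3 at 0.249. Deviations cancel out within a group, so with replicate 1 apart in both groups, samples numbered 2 and 3 tend to correlate in any pairing. The correlations therefore cannot show that samples numbered 2 and 3 are paired by number. Replicates of a group differed by 18.8 to 194 in chi-square per degree of freedom, so none was treated as a library deposited more than once; this does not show that they came from separate animals. The members and lists were chosen with earlier results of these data known. The genes named are the members, up to 3 called genes or the 2 with the smallest p of each list, and the 3 most like each tested member. A gene that this rule names is not reported here. Transcript lengths are from GENCODE M21 and promoters from RefSeq, both on GRCm38.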

Additional observations from a re-analysis of the deposited data

How the results depend on the processing

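Between congested and IRI kidney, edgeR called 0 genes with RLE factors, total counts, no filter, the replicate block and without each library in turn (0 to 0), and DESeq2 called 10 with the replicate block. With total counts the median log2 difference of all tested genes was 0.10, and the 7 tested members kept their sign with RLE factors, total counts, no filter, DESeq2 and the replicate block. Between replicate numbers 1144 genes were called, against 3231 with no filter, 1854 by DESeq2 and 664 without the group term. Leaving out 1 library gave 854 to 7841, with 5207 without IRI replicate 3 and 7841 without congested replicate 3, where the lone library of a number is assumed to vary like the rest. The mean log2 difference of replicate 1 from replicates 2 and 3 was 0.45 for Hp and lay between -0.67 (without IRI replicate 1) and 1.94 when a library was left out, turning to -0.22 without IRI replicate 2. Across the 6 gene lists the count called between numbers also moved: no filter gave 15, 13, 5, 5 and 7 for the other positive acute-phase, IL-6, IL-1, haem and receptor lists, DESeq2 gave 5 for haem and 2 for receptors, and dropping the group term gave 3, 3 and 0 for the negative acute-phase, IL-6 and receptor lists. The causes were not tested. Depth limits Hpx, Saa2 and Saa3, which had at most 5, 16 and 37 reads in a library.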

Other observations

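Other acute-phase genes also peaked in congested replicate 2, the library with the highest Hp. Of 17 tested genes of the positive acute-phase list 6 had their highest level there, as 11.7% of all tested genes did, while 8 had it in IRI replicate 1, as 26% of all tested genes did. Of the 7 tested members only Hp peaked in congested replicate 2. The 6 genes were Serpina3n, C3, C4b, Cfb, Saa4 and Steap4, named after their values were seen. Serpina3n, a serine protease inhibitor, had 4.49, 14.3 and 2.67 CPM in congested replicates 1, 2 and 3 and 11.1, 3.67 and 1.06 CPM in IRI replicates 1, 2 and 3. Itih4, an acute-phase inhibitor heavy chain with too few reads for the test and also named after its values were seen, had 0, 27 and 0 reads in the congested and 0, 1 and 1 reads in the IRI replicates.

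Lif, a cytokine of the interleukin-6 family named after its values were seen, had 9.78, 11.9 and 6.83 CPM in congested replicates 1, 2 and 3 and 14, 3.07 and 0.53 CPM in IRI replicates 1, 2 and 3. Within numbers the log2 difference was -0.51, 1.89 and 3.33. These values are given without a test.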
